A study of Mus musculus with 12 samples.

Results

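The genes described here are those of the Wnt ligands and of the receptors that bind them at the cell surface, measured by RNA sequencing in mouse bone marrow-derived mesenchymal stem cells. They were chosen by symbol alone, as every row named Wnt or Fzd with a number (and, for Wnt, an optional a or b) plus Lrp5, Lrp6, Ror1, Ror2 and Ryk, which gave 34 of the 23358 rows of the gene table. These were 19 Wnt ligands, 10 Frizzled receptors, the LRP co-receptors Lrp5 and Lrp6, and the receptors Ror1, Ror2 and Ryk. The study has 12 libraries, 3 in each of 4 groups: cells given cytochalasin D and CK666 together (CytoD+CK666), cytochalasin D alone (CytoD), CK666 alone (CK666), or neither (Ctrl). Cytochalasin D blocks the growing ends of actin filaments, and CK666 inhibits the Arp2/3 complex, which starts branches on them. All cells grew in medium with 10% serum, were plated at 10000 per square centimetre 1 day earlier, per the labels, and the treated cells were given the compounds for 24 h. The labels state neither doses nor a vehicle for the Ctrl cells, and no mouse strain or age. They also do not say whether replicates were separate animals or cultures, so p-values measure only the spread between these libraries, and that spread may be technical.

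Wnt proteins are secreted, lipid-modified ligands. In the canonical branch a Wnt binds a Frizzled and LRP5 or LRP6 together, and beta-catenin is then spared from degradation and acts with TCF and LEF factors on transcription. In noncanonical branches, Frizzleds act with ROR1, ROR2 or RYK on the cytoskeleton, cell polarity or calcium, and Wnt5a is the best known ligand of this kind. In marrow stromal cells canonical signalling is known to favour bone formation over fat formation.

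Sequences upstream of the genes are shown for the 5 members that had a called change of at least 1 on the log2 scale and a promoter entry in the RefSeq table used, 3 ligands and 2 Frizzleds. They come from RefSeq on GRCm38.p6, run 5′ to 3′ on the gene's strand, and cover 250 bases before and 50 bases after the start. Capitals mark each GC box, the letters GGGCGG on either strand (CCGCCC on the strand printed); adjoining or overlapping boxes run together.
Wnt4, chr4:137277385-137277684, plus strand: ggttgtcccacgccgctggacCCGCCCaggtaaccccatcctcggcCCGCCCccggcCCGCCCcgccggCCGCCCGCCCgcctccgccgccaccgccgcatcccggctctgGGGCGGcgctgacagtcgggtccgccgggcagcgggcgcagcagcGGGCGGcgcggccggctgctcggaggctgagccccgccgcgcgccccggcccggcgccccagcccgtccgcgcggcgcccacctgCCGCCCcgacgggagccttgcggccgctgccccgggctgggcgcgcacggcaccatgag
Wnt5b, chr6:119544298-119544597, minus strand, 1 of 3 listed starts: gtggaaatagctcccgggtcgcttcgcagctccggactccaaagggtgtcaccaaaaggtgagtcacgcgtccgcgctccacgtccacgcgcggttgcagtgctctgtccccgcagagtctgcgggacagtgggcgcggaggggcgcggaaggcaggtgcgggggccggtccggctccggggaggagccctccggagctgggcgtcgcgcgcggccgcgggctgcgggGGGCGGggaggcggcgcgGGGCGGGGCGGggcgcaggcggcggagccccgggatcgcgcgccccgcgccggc
Wnt11, chr7:98838595-98838894, plus strand, 1 of 2 listed starts: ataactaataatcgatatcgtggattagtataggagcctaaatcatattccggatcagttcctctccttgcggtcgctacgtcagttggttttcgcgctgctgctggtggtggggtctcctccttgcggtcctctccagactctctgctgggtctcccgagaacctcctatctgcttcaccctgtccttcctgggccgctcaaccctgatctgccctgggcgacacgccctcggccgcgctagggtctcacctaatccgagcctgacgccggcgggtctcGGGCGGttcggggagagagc
Fzd4, chr7:89404116-89404415, plus strand: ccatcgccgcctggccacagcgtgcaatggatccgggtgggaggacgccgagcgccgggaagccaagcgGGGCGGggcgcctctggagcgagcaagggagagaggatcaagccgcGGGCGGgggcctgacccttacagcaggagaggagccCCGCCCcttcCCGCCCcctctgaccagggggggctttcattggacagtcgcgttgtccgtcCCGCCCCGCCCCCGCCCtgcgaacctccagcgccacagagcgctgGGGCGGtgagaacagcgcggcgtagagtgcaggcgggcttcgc
Fzd5, chr1:64737701-64738000, minus strand: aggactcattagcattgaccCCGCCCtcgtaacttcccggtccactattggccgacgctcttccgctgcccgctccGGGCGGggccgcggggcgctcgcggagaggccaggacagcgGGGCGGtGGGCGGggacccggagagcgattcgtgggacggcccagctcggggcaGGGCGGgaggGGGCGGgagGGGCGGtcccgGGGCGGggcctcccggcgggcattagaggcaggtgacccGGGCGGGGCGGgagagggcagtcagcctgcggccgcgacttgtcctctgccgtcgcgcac
The 5 windows held 8 GC boxes for Wnt4, 3 for Wnt5b, 1 for Wnt11, 8 for Fzd4 and 10 for Fzd5. Of the 34 members, 24 had an entry, and 20 of these 24 windows (83.3%) held a GC box, against 35.7% of the 32851 promoters in the table. The TCF/LEF core CTTTGA was found in 8.33% of the 24 members' windows and in 16% of all promoters, on either strand. The TEAD core CATTCC was in 0 of the 24 windows and in 14.7% of all promoters. The TATA box TATAAA was in 8.33% of the 24 windows and in 13.6% of all promoters, and the CArG box in 0 of them and in 1.63% of all promoters. None of the 5 windows printed held the TCF/LEF core, the TEAD core, the CArG box or the TATA box. A match, or its lack, is a matter of letters in this window and says nothing of binding.

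Gene counts summed to between 48930210 and 69269716 per library. Levels are given as CPM, read counts normalized to library size with TMM factors, and genes are compared with each other as CPM per kilobase of the table's length column. A gene is called where the quasi-likelihood test of edgeR gave a Benjamini-Hochberg adjusted p under 0.05 over 13534 tested genes. CK666 replicate 3 stood apart: it differed from CK666 replicates 1 and 2 by a median of 0.289 and 0.276 on the absolute log2 scale, and those 2 differed from each other by 0.126. Its difference was related to gene length (Pearson r = -0.458 over 13534 genes; genes are no independent replicates). Changes that include the CK666 group are also given without this library where a call, a sign or the size turned on it. All comparisons share 1 estimate of the spread over the 12 libraries, so calls without the CK666 group can depend on it too. In CytoD against Ctrl, 5136 genes were called with this library in the fit and 6924 without it. Of 9 marrow stromal markers, 5 (Cxcl12, Pdgfra, Pdgfrb, Kitl and Vcam1) had group means of at least 172 CPM in all groups, and 4 (Lepr, Nt5e, Thy1 and Eng) had group means of at most 2.3 CPM. Summed, the stromal markers were at 7120 to 7280 CPM in CytoD+CK666, 19500 to 22300 CPM in CytoD, 6440 to 8350 CPM in CK666 and 8430 to 12300 CPM in Ctrl. The sum of 6 adipocyte markers was 1780 to 2550 CPM in CytoD+CK666, 386 to 406 CPM in CytoD, 1070 to 1880 CPM in CK666 and 78.7 to 88.2 CPM in Ctrl. The sum of 6 osteoblast markers was 17.1 to 29.8 CPM in CytoD+CK666, 31.5 to 42.1 CPM in CytoD, 11.1 to 12.2 CPM in CK666 and 11.3 to 13.9 CPM in Ctrl. Of 7 macrophage markers, Ptprc and Emr1 (also called Adgre1) had 0 counts in all libraries, while Lyz2, Cd14, Csf1r and Cd68 were detected, and the list summed to 7.76 to 8.47 CPM in CytoD+CK666, 12 to 13 CPM in CytoD, 6.89 to 9.04 CPM in CK666 and 9.39 to 10.5 CPM in Ctrl. Of 6 endothelial markers, Emcn had 0 counts and Vwf reached a group mean of 3.18 CPM; the list summed to 3.07 to 3.96 CPM in CytoD+CK666, 2.71 to 3.14 CPM in CytoD, 1.34 to 1.74 CPM in CK666 and 1.59 to 2.41 CPM in Ctrl. The low ligands described below lie in the same range of CPM as these macrophage and endothelial genes. The group means of Fzd3 and Lrp5 had the order of the adipocyte sum (CytoD+CK666, CK666, CytoD, Ctrl from high to low). Those of Fzd1 had the order of the stromal sum, and those of Wnt2b that of the osteoblast sum. Those of Fzd5, Fzd8, Wnt4 and Lrp6 had the order of the macrophage sum. Each of these orders holds a step between neighbouring groups that was not called. For CytoD+CK666 against CK666, the edgeR adjusted p was 0.929 for Fzd1 and 0.663 for Lrp5. For CytoD+CK666 against Ctrl, it was 0.980 for Wnt2b and 0.839 for Wnt4. The sums, too, overlapped between some neighbouring groups. Wnt5a had its highest group mean in CytoD, as did 8 of the 20 tested members, counting Wnt5a. The stromal, osteoblast and macrophage sums were all highest in CytoD. Within the stromal, osteoblast and macrophage lists, however, markers differed in order. Cxcl12 led the stromal sum (18100 CPM in CytoD). Pdgfra, Kitl and Vcam1 were also highest in CytoD, but Pdgfrb was highest in Ctrl (709 CPM). Alpl, Phex and Sp7 were highest in CytoD, but Bglap was highest in CK666, Ibsp in CytoD+CK666 and Dmp1 in Ctrl. Lyz2 was highest in CytoD (5.33 CPM), where Cd68 was lowest (1.12 CPM). The part of these cell types in the changes below was not tested. In such bulk samples, fewer cells of a type and less RNA per cell cannot be told apart.

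Of the 34 members, 20 had enough counts to be tested, 8 ligands, 8 Frizzleds, both LRP genes, Ryk and Ror2. The tested ligands were Wnt5a, Wnt5b, Wnt11, Wnt9a, Wnt4, Wnt10b, Wnt2b and Wnt6. The tested Frizzleds were Fzd1 to Fzd8. A further 7 had more than 3 counts in at least 1 library but were too low to test, namely Wnt16, Wnt8b, Wnt2, Wnt7a, Wnt7b, Fzd9 and Ror1. Fzd9 had the most counts of these, 14 in its highest library, and Ror1 had 8. Wnt3, Wnt1 and Wnt10a reached 2 counts at most. Wnt3a, Wnt9b, Wnt8a and Fzd10 had 0 counts in all 12 libraries, which allows up to 0.0634 CPM in the library with the highest limit, Ctrl replicate 2 (counting error only; a larger limit if each fragment was counted by both of its reads). Wnt3a and Wnt1, the ligands most used as models of canonical signalling, were thus not detectable at this depth. By a mean of at least 1 CPM in any group, 17 members were detected, since Wnt10b, Wnt2b and Wnt6 stayed below it.

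**Figure D1:**
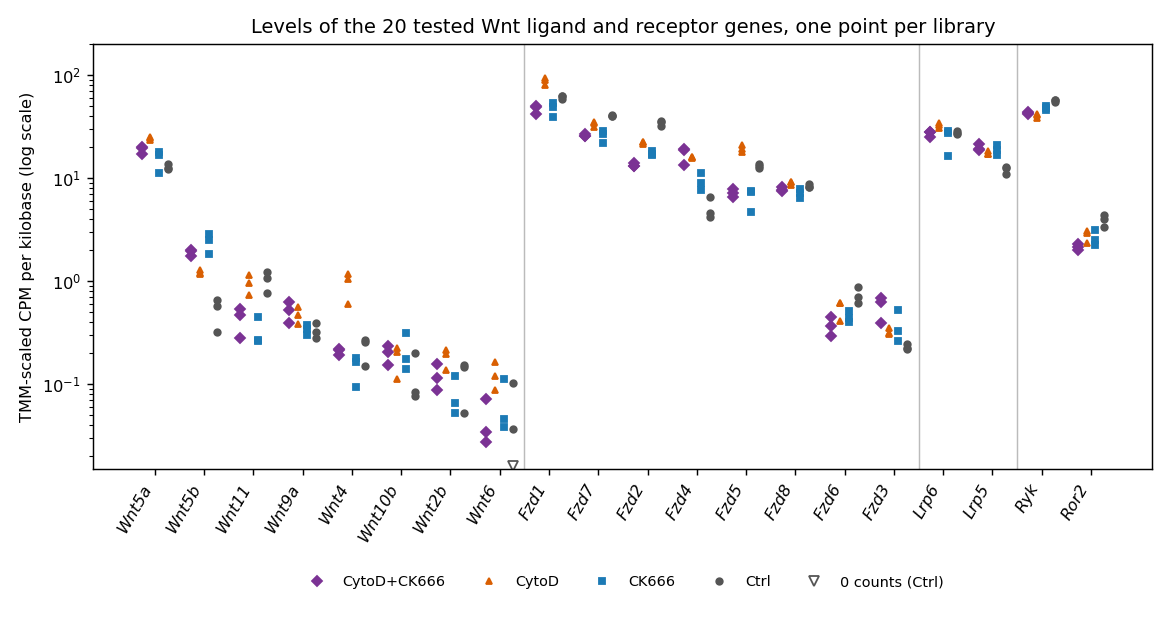
The vertical axis is TMM-scaled CPM per kilobase on a log scale, and each point is 1 library of the 20 tested genes, grouped as ligands, Frizzleds, LRP genes and Ryk with Ror2. Wnt5a stands above the other ligands at 11.3 to 25, Fzd1 leads the Frizzleds at 39.1 to 92.7, and the 1 Ctrl library with 0 Wnt6 counts is marked by an open triangle.

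Wnt5a was by far the main ligand transcript. It made up 82.8% to 85.4% of the summed CPM per kilobase of the Wnt genes in CytoD+CK666, 84.8% to 86.0% in CytoD, 73.8% to 85.3% in CK666 and 81.8% to 86.4% in Ctrl. The lowest share, 73.8%, was in CK666 replicate 3. Among receptors, Ryk, an atypical tyrosine kinase-like receptor for Wnts, made up 92.7% to 95.5% of the summed CPM per kilobase of Ror1, Ror2 and Ryk. Lrp6 exceeded Lrp5 per kilobase in 11 of the 12 libraries, the exception being CK666 replicate 3, where Lrp5 took 53.6%. Fzd1 was the highest Frizzled per kilobase in every library, followed on average by Fzd7 and Fzd2.

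Against Ctrl, more members were called than not in each treatment, among shares of all genes that were also large. In CytoD+CK666, 14 of 20 were called, 6 higher and 8 lower, where 46.0% of all tested genes were called, 24.4% higher and 21.6% lower. In CytoD, 11 of 20 were called, 7 higher and 4 lower, where 37.9% of all genes were called, 19.1% higher and 18.9% lower. In CK666, 13 of 20 were called, 4 higher and 9 lower, where 41.1% of all genes were called, 22.5% higher and 18.7% lower. The balance of all genes turned towards lower calls in these 3 comparisons under each other scaling tried, while no member's call changed direction. Treated and Ctrl libraries were fully separated for 13 of 20 members in CytoD+CK666 (63.4% of all genes), 14 in CytoD (61.6% of all genes) and 13 in CK666 (50.1% of all genes). The median absolute log2 change of the 20 members was 0.67 in CytoD+CK666, 0.52 in CytoD and 0.63 in CK666, against 0.31, 0.26 and 0.28 over all tested genes in the same order. The 3 comparisons share the Ctrl libraries, so their calls do not stand apart from each other. Fzd4, Lrp5 and Wnt5b were called higher in each treatment, Fzd2, Fzd7, Ror2 and Ryk lower in each, and Fzd1 and Fzd5 higher in CytoD but lower in CytoD+CK666 and in CK666. Lrp6, Wnt10b, Wnt2b and Wnt6 were called in none.

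Without CK666 replicate 3, the calls of CK666 against Ctrl were kept and Wnt5a joined them, for 14 in all. The log2 change in CK666 was then -0.87 for Fzd5, -0.31 for Fzd1, -0.59 for Fzd7, -1.07 for Fzd2, 0.95 for Fzd4, 0.60 for Lrp5, 2.02 for Wnt5b and -0.84 for Fzd6. For Wnt4, which was not called, it was -0.85. Fzd8, Lrp6, Ror2 and Wnt5a were then also called lower in CytoD+CK666 than in CytoD (Fzd8 by a log2 change of -0.22, edgeR adjusted p = 0.0263), and Ryk lower than in CK666 (log2 change -0.18, edgeR adjusted p = 0.0390).

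**Figure D2:**
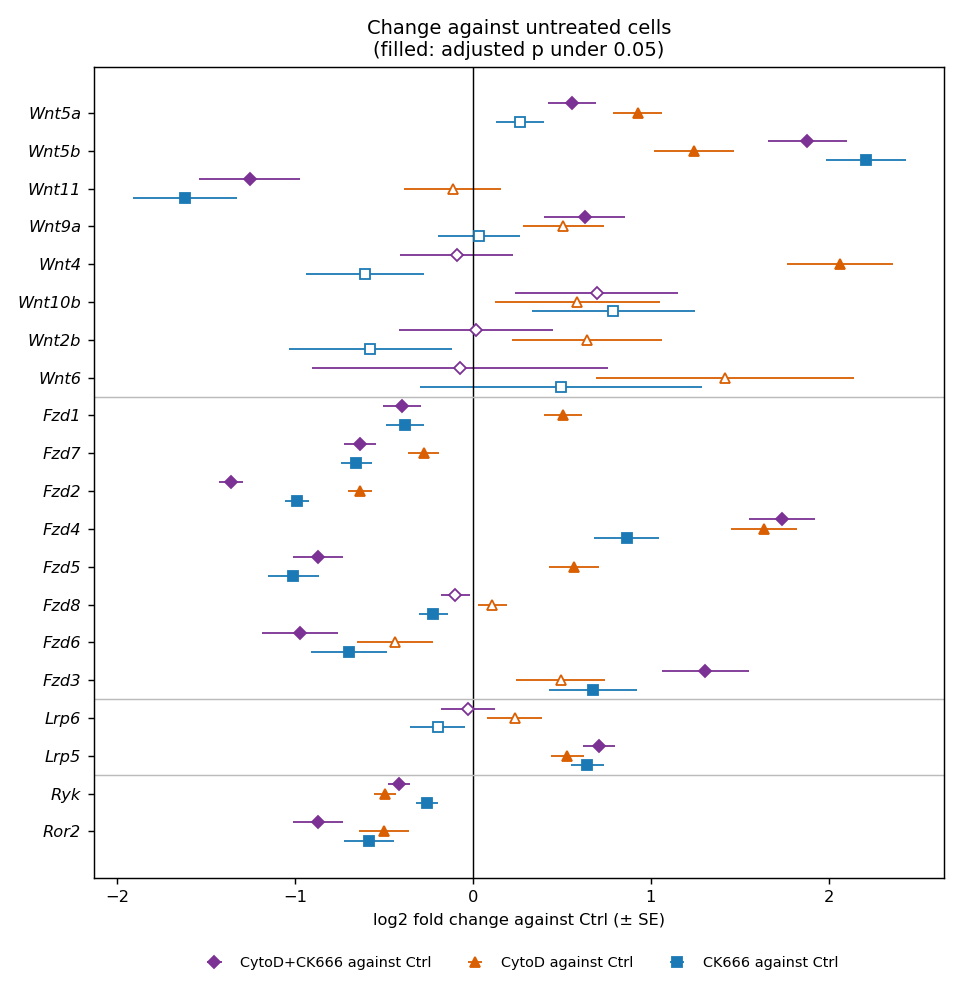
The horizontal axis is the log2 fold change against Ctrl and each point is a tested gene in 1 treatment, with whiskers of 1 SE; filled points have an adjusted p under 0.05. Fzd4, Lrp5 and Wnt5b lie right of 0 in all 3 treatments, Fzd2, Fzd7, Ryk and Ror2 lie left of it, and Fzd1 and Fzd5 lie right of 0 in CytoD but left of it in CytoD+CK666 and CK666.

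Among the ligands, Wnt5a, encoded at chr14:28505473-28525515, had 75.0, 86.8 and 84.9 CPM in CytoD+CK666, 102, 107 and 110 CPM in CytoD, 73.0, 78.9 and 49.5 CPM in CK666, and 59.9, 54.9 and 53.0 CPM in Ctrl. All CytoD libraries lay above all others, and CK666 replicate 3 lay below all Ctrl libraries. Wnt5a rose in CytoD against Ctrl by 0.93 ± 0.14 on the log2 scale (SE, 1.9-fold, edgeR adjusted p = 0.000187) and in CytoD+CK666 by 0.56 ± 0.14 (adjusted p = 0.00440). In CK666 the change was 0.26 ± 0.14 (adjusted p = 0.138), and without CK666 replicate 3 it was 0.40 (adjusted p = 0.000877). Against CytoD, the level in CytoD+CK666 differed by -0.37 ± 0.13 (adjusted p = 0.0535), and by -0.39 without CK666 replicate 3 (adjusted p = 0.000495). An antisense neighbour, Gm2670, overlaps exons of Wnt5a, and as strand handling is not stated, its reads may be among those of Wnt5a.

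Wnt5b, a close relative of Wnt5a at chr6:119432531-119544347, had 4.14, 4.68 and 4.66 CPM in CytoD+CK666, 2.80, 2.85 and 3.03 CPM in CytoD, 4.33, 5.88 and 6.73 CPM in CK666, and 1.34, 0.761 and 1.54 CPM in Ctrl. Every treated library exceeded every Ctrl library, and every library with CK666 exceeded every CytoD library. The rise against Ctrl was 1.88 ± 0.22 in CytoD+CK666 (3.68-fold, edgeR adjusted p = 1.72e-05), 1.24 ± 0.23 in CytoD (2.37-fold, adjusted p = 0.000893) and 2.21 ± 0.22 in CK666 (4.63-fold, adjusted p = 7.34e-06). Against CytoD, CytoD+CK666 was higher by 0.64 ± 0.21 (adjusted p = 0.0329), a call lost when any single CytoD library, or CytoD+CK666 replicate 2 or 3, was left out (adjusted p up to 0.0946). Against CK666, the change in CytoD+CK666 was -0.33 ± 0.20 (edgeR adjusted p = 0.288), and -0.17 without CK666 replicate 3 (adjusted p = 0.628). The Fbxl14 row lies inside the span of Wnt5b, without shared exons.

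Wnt4, a ligand described in both canonical and noncanonical settings and in the sparing of bone from loss, had the largest called change of any ligand in CytoD. At chr4:137277635-137299501, it had 0.739, 0.846 and 0.812 CPM in CytoD+CK666, 2.30, 3.96 and 4.44 CPM in CytoD, 0.355, 0.619 and 0.689 CPM in CK666, and 0.570, 0.973 and 1.01 CPM in Ctrl. The 3 CytoD libraries lay above all 9 others. Wnt4 rose in CytoD against Ctrl by 2.06 ± 0.30 (4.18-fold, edgeR adjusted p = 0.000163) and was lower in CytoD+CK666 than in CytoD (log2 change -2.16 ± 0.29, adjusted p = 0.000150). In CytoD+CK666 against Ctrl the change was -0.09, with a 95% interval of -0.78 to 0.60 (adjusted p = 0.839), and in CK666 against Ctrl it was -0.61, with a 95% interval of -1.33 to 0.11 (adjusted p = 0.162). The first interval excludes a change of 1.5 times in neither direction, and the second does not exclude one in the lower direction.

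Wnt11, a noncanonical ligand known from gastrulation movements and from heart and kidney, had 1.48, 1.30 and 0.776 CPM in CytoD+CK666, 3.17, 2.68 and 2.02 CPM in CytoD, 0.748, 0.735 and 1.25 CPM in CK666, and 2.12, 2.96 and 3.42 CPM in Ctrl. The libraries with CK666 all lay below those without it, in contrast to Wnt5b, where they all lay above. Wnt11, at chr7:98838845-98854747, fell in CytoD+CK666 against Ctrl (log2 change -1.26 ± 0.29, edgeR adjusted p = 0.00293) and in CK666 (log2 change -1.62 ± 0.30, adjusted p = 0.000802, and -1.97 without CK666 replicate 3). Against CytoD it was lower in CytoD+CK666 (log2 change -1.14 ± 0.29, adjusted p = 0.00904). In CytoD against Ctrl the change was -0.11, with a 95% interval of -0.70 to 0.48 (adjusted p = 0.774). Gm8398 overlaps exons of Wnt11 on the other strand.

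The 4 other tested ligands were low. Wnt9a averaged 1.70 ± 0.38 CPM in CytoD+CK666, 1.56 ± 0.29 in CytoD, 1.13 ± 0.12 in CK666 and 1.10 ± 0.19 in Ctrl (SD, n = 3 each). It was called only in CytoD+CK666 against Ctrl (log2 change 0.63 ± 0.23, edgeR adjusted p = 0.0372, groups overlapping). Leaving out any of 5 libraries ended that call: CytoD replicate 3, CytoD+CK666 replicate 1 or 2, or Ctrl replicate 1 or 3. A fit of only those 2 groups also ended it (adjusted p up to 0.147 over these alternatives). In CytoD its change against Ctrl was 0.51 ± 0.23 (adjusted p = 0.0984). Wnt10b, which is known to hold back fat formation from marrow stroma, averaged 0.438 ± 0.091 CPM in CytoD+CK666, 0.403 ± 0.13 in CytoD, 0.468 ± 0.20 in CK666 and 0.268 ± 0.16 in Ctrl. Wnt2b averaged 0.427 ± 0.13, 0.652 ± 0.14, 0.283 ± 0.13 and 0.422 ± 0.20 CPM in CytoD+CK666, CytoD, CK666 and Ctrl. Wnt6 ranged from 0 to 0.336 CPM over all libraries. Over the 5 comparisons between groups, the lowest edgeR adjusted p was 0.188 for Wnt10b, 0.251 for Wnt2b and 0.131 for Wnt6.

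**Figure D3:**
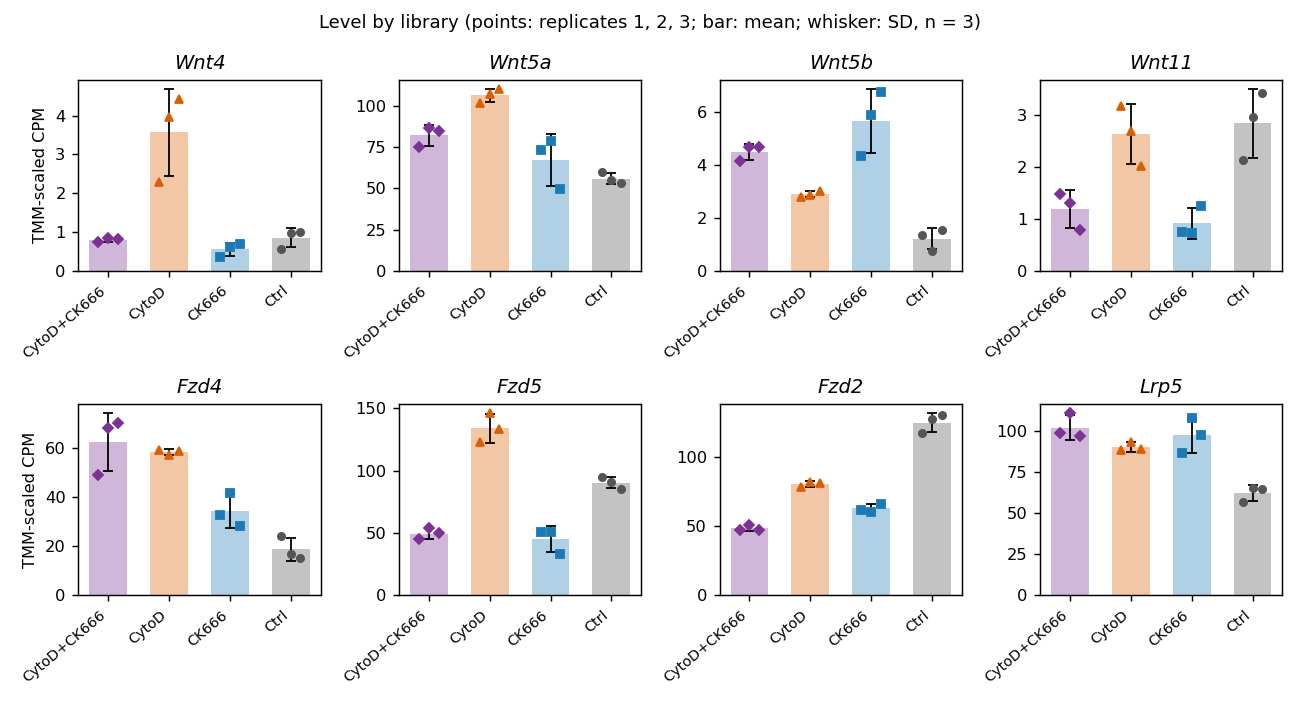
The vertical axes give TMM-scaled CPM, starting at 0; points are the 3 libraries of each group, bars their mean and whiskers the SD. Wnt4 is high in the 3 CytoD libraries alone (2.30 to 4.44 CPM), Wnt5b is above all Ctrl libraries in every treatment, Wnt11 is lower in both groups with CK666, and Fzd5 is highest in CytoD and lowest in the groups with CK666.

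The Frizzleds, receptors with a membrane-spanning core and an outer cysteine-rich domain that binds Wnts, differed between groups both in their sum and in its make-up, which are described here without a test. Their summed CPM per kilobase was 108 to 124 in CytoD+CK666, 177 to 197 in CytoD, 99.4 to 126 in CK666 and 161 to 166 in Ctrl. The CytoD libraries thus lay above, and both groups with CK666 below, the Ctrl libraries. Against Ctrl, 2 of 8 tested Frizzleds rose and 5 fell in CytoD+CK666 (24.4% of all genes rose and 21.6% fell), 3 rose and 2 fell in CytoD (19.1% and 18.9% of all genes), and 2 rose and 6 fell in CK666 (22.5% and 18.7% of all genes).

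Fzd4, the receptor of norrin in retinal vessels as well as of Wnts, had the largest rise among the Frizzleds in each treatment. It had 48.9, 68.3 and 70.2 CPM in CytoD+CK666, 59.4, 57.1 and 58.7 CPM in CytoD, 32.8, 41.7 and 28.1 CPM in CK666, and 24.1, 16.9 and 15.3 CPM in Ctrl. All treated libraries exceeded all Ctrl libraries. The rise against Ctrl was 1.74 ± 0.19 in CytoD+CK666 (3.33-fold, edgeR adjusted p = 6.67e-06), 1.64 ± 0.19 in CytoD (3.11-fold, adjusted p = 2.47e-05) and 0.86 ± 0.18 in CK666 (1.82-fold, adjusted p = 0.00225). It was higher in CytoD+CK666 than in CK666 by 0.87 ± 0.18 (adjusted p = 0.00773). Between CytoD+CK666 and CytoD the difference was 0.10, with a 95% interval of -0.29 to 0.48 (adjusted p = 0.726). Its share of summed Frizzled CPM per kilobase was 12.2% to 15.3% in CytoD+CK666, 7.89% to 9.11% in CytoD, 7.61% to 8.99% in CK666 and 2.58% to 3.97% in Ctrl. Its group means were 62.5, 58.4, 34.2 and 18.8 CPM in CytoD+CK666, CytoD, CK666 and Ctrl. The gene lies at chr7:89404366-89410110.

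Fzd5, a Frizzled often tied to canonical signals, had 45.0, 53.7 and 49.6 CPM in CytoD+CK666, 123, 146 and 133 CPM in CytoD, 51.1, 50.8 and 32.7 CPM in CK666, and 94.5, 91.2 and 85.4 CPM in Ctrl. The CytoD libraries lay above all Ctrl libraries and the libraries with CK666 below them. Fzd5, at chr1:64730558-64737750, fell in CytoD+CK666 against Ctrl (log2 change -0.87 ± 0.14, edgeR adjusted p = 0.000254) and in CK666 (log2 change -1.01 ± 0.14, adjusted p = 0.000119), and rose in CytoD by 0.57 ± 0.14 (adjusted p = 0.00678). Against CytoD it was lower in CytoD+CK666 (log2 change -1.44 ± 0.14, 2.71-fold lower, adjusted p = 1.38e-05). The antisense gene Gm38058 overlaps an exon of Fzd5, and as strand handling is not stated, its reads may be among those of Fzd5.

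Fzd1, Fzd7 and Fzd2 are close relatives and gave the highest Frizzled levels. Fzd1 had 182, 212 and 218 CPM in CytoD+CK666, 352, 406 and 391 CPM in CytoD, 216, 232 and 171 CPM in CK666, and 276, 274 and 259 CPM in Ctrl. Like Fzd5, Fzd1 was higher in CytoD than in Ctrl and lower than in Ctrl in both groups with CK666. The log2 change against Ctrl was -0.40 ± 0.11 in CytoD+CK666 (edgeR adjusted p = 0.00775), 0.51 ± 0.11 in CytoD (adjusted p = 0.00239) and -0.38 ± 0.11 in CK666 (adjusted p = 0.0119). Against CytoD, CytoD+CK666 was lower (log2 change -0.91 ± 0.11, adjusted p = 5.15e-05).

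Fzd2 had 47.4, 50.7 and 47.4 CPM in CytoD+CK666, 77.8, 81.8 and 81.1 CPM in CytoD, 61.9, 60.3 and 65.9 CPM in CK666, and 117, 127 and 130 CPM in Ctrl. No 2 groups overlapped, and it was the one member called in all 5 comparisons between groups. Fzd2, at chr11:102604431-102608058, fell against Ctrl in CytoD+CK666 (log2 change -1.36 ± 0.07, edgeR adjusted p = 1.56e-08), in CytoD (log2 change -0.64 ± 0.07, adjusted p = 1.41e-05) and in CK666 (log2 change -0.99 ± 0.07, adjusted p = 2.88e-07). In CytoD+CK666 it was lower than in CytoD (log2 change -0.73 ± 0.07, adjusted p = 7.5e-06) and than in CK666 (log2 change -0.37 ± 0.07, adjusted p = 0.00318; 0.0529 in a fit of only those 2 groups). Its share of summed Frizzled CPM per kilobase was 10.5% to 12% in CytoD+CK666 and 19.5% to 22.3% in Ctrl.

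Fzd7, a Frizzled known from stem and progenitor cells, had 124, 124 and 128 CPM in CytoD+CK666, 152, 167 and 163 CPM in CytoD, 129, 137 and 105 CPM in CK666, and 194, 196 and 194 CPM in Ctrl. All treated libraries lay below all Ctrl libraries. The log2 change against Ctrl was -0.64 ± 0.09 in CytoD+CK666 (edgeR adjusted p = 6.42e-05), -0.28 ± 0.09 in CytoD (adjusted p = 0.0241) and -0.66 ± 0.09 in CK666 (adjusted p = 7.99e-05). The CytoD call was lost without CytoD replicate 1 or 3 or Ctrl replicate 2 (adjusted p up to 0.0875). Against CytoD, CytoD+CK666 was lower (log2 change -0.36 ± 0.09, adjusted p = 0.00808).

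**Figure D4:**
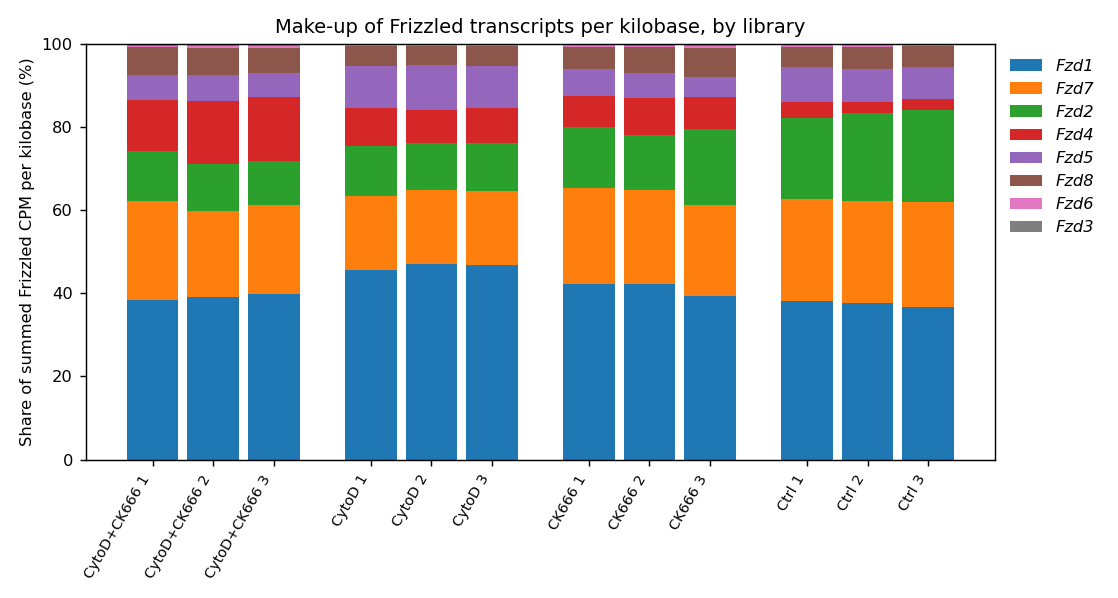
Each bar is 1 library, and its segments are the shares (%) of the 8 tested Frizzleds in the summed CPM per kilobase of all Frizzled genes. The Fzd4 segment takes 12.2% to 15.3% in CytoD+CK666 and 2.58% to 3.97% in Ctrl, Fzd2 is largest in Ctrl, and Fzd1 takes 36.7% to 47.2% throughout.

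The other 3 tested Frizzleds were lower. Fzd3, a receptor of planar cell polarity and axon guidance, had 4.99, 7.96 and 8.75 CPM in CytoD+CK666, 3.99, 4.43 and 3.94 CPM in CytoD, 3.31, 6.62 and 4.13 CPM in CK666, and 3.09, 2.88 and 2.82 CPM in Ctrl. All treated libraries exceeded all Ctrl libraries, and CK666 replicate 2 was high within its group. It rose in CytoD+CK666 against Ctrl by 1.31 ± 0.24 (2.47-fold, edgeR adjusted p = 0.000719) and against CytoD by 0.81 ± 0.24 (adjusted p = 0.0201; lost without CytoD replicate 1 or 3 or CytoD+CK666 replicate 2 or 3, up to 0.0883). Its change against Ctrl in CytoD was 0.49 ± 0.25 (adjusted p = 0.137). In CK666 it was 0.68 ± 0.25 (adjusted p = 0.0431), a call lost without any single CytoD or Ctrl library, CK666 replicate 2 or CytoD+CK666 replicate 2, and also with RLE scaling, halved counts, removal of Rn45s or a fit of only those 2 groups (adjusted p up to 0.211).

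Fzd6, also a planar cell polarity receptor, averaged 1.54 ± 0.33 CPM in CytoD+CK666, 2.24 ± 0.49 in CytoD, 1.86 ± 0.22 in CK666 and 3.03 ± 0.53 in Ctrl (SD, n = 3 each). It fell against Ctrl in CytoD+CK666 (log2 change -0.97 ± 0.22, edgeR adjusted p = 0.00243) and in CK666 (log2 change -0.70 ± 0.21, adjusted p = 0.0192; lost without CK666 replicate 2 or Ctrl replicate 2, up to 0.0889). In CytoD the change was -0.44 ± 0.21 (adjusted p = 0.122). Fzd8 averaged 26.0 ± 1.5 CPM in CytoD+CK666, 30.1 ± 1.2 in CytoD, 23.9 ± 2.4 in CK666 and 27.9 ± 1.2 in Ctrl. It was called only in CK666 against Ctrl (log2 change -0.22 ± 0.08, adjusted p = 0.0424), a call lost without any single CytoD library, CK666 replicate 1, CytoD+CK666 replicate 3 or Ctrl replicate 2 or 3, or in a fit of only those 2 groups (adjusted p up to 0.149). It was the Frizzled with the least change: against Ctrl, the 95% interval in CytoD was -0.07 to 0.28.

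Lrp5 and Lrp6 are the co-receptors that canonical signalling requires, and Lrp5 is known for its effect on bone mass. Lrp5, at chr19:3584825-3686564, had 98.8, 111 and 97.0 CPM in CytoD+CK666, 88.3, 93.6 and 88.9 CPM in CytoD, 86.6, 108 and 97.8 CPM in CK666, and 57.0, 65.5 and 64.9 CPM in Ctrl. Every treated library exceeded every Ctrl library, while the treated groups lay close together. The rise against Ctrl was 0.71 ± 0.09 in CytoD+CK666 (1.63-fold, edgeR adjusted p = 3.33e-05), 0.53 ± 0.09 in CytoD (1.45-fold, adjusted p = 0.000563) and 0.64 ± 0.09 in CK666 (1.56-fold, adjusted p = 0.000118). Between CytoD+CK666 and CytoD the difference was 0.18, with a 95% interval of -0.02 to 0.37 (adjusted p = 0.160).

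Lrp6, at chr6:134446478-134566913, had 236, 265 and 261 CPM in CytoD+CK666, 288, 307 and 319 CPM in CytoD, 254, 269 and 154 CPM in CK666, and 270, 254 and 253 CPM in Ctrl. The CytoD libraries lay above all others, and CK666 replicate 3 lay far below its group. With all libraries in the fit no comparison was called for it. In CytoD against Ctrl the change was 0.24, with a 95% interval of -0.10 to 0.57 (edgeR adjusted p = 0.250), and without CK666 replicate 3 it was 0.22 (adjusted p = 0.00429). In CK666 against Ctrl it was -0.20, with a 95% interval of -0.53 to 0.13 (adjusted p = 0.324), and without CK666 replicate 3 it was -0.03 (adjusted p = 0.762). In CytoD+CK666 against CytoD it was -0.26 (adjusted p = 0.225), and -0.28 without that library (adjusted p = 0.00121). The summed CPM per kilobase of both LRP genes was 44.3 to 49.6 in CytoD+CK666, 47.8 to 51.2 in CytoD, 35.3 to 49.7 in CK666 and 39.5 to 39.8 in Ctrl.

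Ryk had 139, 142 and 136 CPM in CytoD+CK666, 136, 133 and 126 CPM in CytoD, 155, 162 and 148 CPM in CK666, and 186, 181 and 188 CPM in Ctrl. All treated libraries lay below all Ctrl libraries, and the replicates lay close together. Ryk, at chr9:102834920-102908307, fell against Ctrl in CytoD+CK666 (log2 change -0.41 ± 0.06, edgeR adjusted p = 0.000114), in CytoD (log2 change -0.49 ± 0.06, adjusted p = 5.38e-05) and in CK666 (log2 change -0.26 ± 0.06, adjusted p = 0.00486). Between CytoD+CK666 and CytoD the difference was 0.08, with a 95% interval of -0.05 to 0.21 (adjusted p = 0.364).

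Ror2, the tyrosine kinase-like receptor through which Wnt5a acts in limb and skeletal growth, had 7.95, 9.08 and 8.47 CPM in CytoD+CK666, 9.33, 11.5 and 12.1 CPM in CytoD, 8.82, 12.5 and 9.89 CPM in CK666, and 13.4, 16 and 17.2 CPM in Ctrl. All treated libraries lay below all Ctrl libraries. Ror2, at chr13:53109317-53286109, fell against Ctrl in CytoD+CK666 (log2 change -0.87 ± 0.14, edgeR adjusted p = 0.000246), in CytoD (log2 change -0.50 ± 0.14, adjusted p = 0.0134) and in CK666 (log2 change -0.58 ± 0.14, adjusted p = 0.00523). The CytoD call was lost without CytoD replicate 1 or Ctrl replicate 3 (adjusted p up to 0.0612). The difference between CytoD+CK666 and CytoD was -0.37 ± 0.14 (adjusted p = 0.0657), and -0.39 without CK666 replicate 3 (adjusted p = 0.0391). Ror1 had 0 to 0.158 CPM in all libraries, so its levels in the groups could not be told apart at this depth.

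Set against each compound alone, the combination differed from CytoD in more members than from CK666, as it did over all tested genes. Against CytoD, 8 of 20 members were called in CytoD+CK666, 2 higher (Wnt5b and Fzd3) and 6 lower (Wnt4, Wnt11, Fzd1, Fzd2, Fzd5 and Fzd7), where 30.1% of all tested genes were called, 15.8% higher and 14.3% lower. Against CK666, 2 of 20 were called, Fzd4 higher and Fzd2 lower, where 11.6% of all genes were called, 4.43% higher and 7.17% lower. This count rested on the setting, since 1 member was called in a fit of only those 2 groups, 4 by DESeq2 and 2 to 4 with 1 library left out. Groups did not overlap for 15 of 20 members against CytoD, where 53.0% of all genes did not overlap, and for 5 of 20 against CK666, where 27.6% did not. The interaction, defined as (CytoD+CK666 minus CK666) minus (CytoD minus Ctrl), was called for 6 of 20 members, where 14.3% of all tested genes were called, 6.63% higher and 7.67% lower. It was higher for Ryk and lower for Wnt4, Wnt5b, Wnt5a, Fzd1 and Lrp5. Of these 6 calls, that of Wnt5b was kept when any 1 library was left out, and the other 5 were each lost without 1 of several libraries, so that leaving out 1 library gave 1 to 10 called members.

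The other genes of the pathway were counted in 6 lists, each set beside the shares of all genes called against Ctrl, which were 46.0% in CytoD+CK666, 37.9% in CytoD and 41.1% in CK666. Of 13 tested Wnt antagonists on the cell surface or secreted, 4 rose and 7 fell in CytoD+CK666 against Ctrl, 4 rose and 0 fell in CytoD, and 4 rose and 7 fell in CK666, so that 84.6%, 30.8% and 84.6% of the list were called. The median log2 change of this list was -0.52 in CytoD+CK666, 0.30 in CytoD and -0.58 in CK666, against 0.04, 0.02 and 0.03 over all tested genes. Sfrp1, a secreted Frizzled-like protein that binds Wnts, averaged 174 ± 12 CPM in CytoD+CK666, 989 ± 73 in CytoD, 235 ± 58 in CK666 and 1060 ± 30 in Ctrl (SD, n = 3 each). It fell in CytoD+CK666 against Ctrl (log2 change -2.60 ± 0.14, edgeR adjusted p = 2.44e-08). Its relative Sfrp4 averaged 1.88 ± 0.19 CPM in CytoD+CK666, 22.5 ± 0.81 in CytoD, 1.34 ± 0.52 in CK666 and 18.3 ± 4.1 in Ctrl, and fell in CytoD+CK666 (log2 change -3.28 ± 0.21, adjusted p = 7.36e-08) and in CK666 (log2 change -3.78 ± 0.22, adjusted p = 8.29e-08) against Ctrl. The membrane inhibitor Apcdd1 moved the other way, averaging 110 ± 29 CPM in CytoD+CK666, 15.2 ± 1.6 in CytoD, 73.0 ± 26 in CK666 and 1.60 ± 0.29 in Ctrl. Its rise against Ctrl was 6.10 ± 0.32 in CytoD+CK666, 3.25 ± 0.31 in CytoD and 5.51 ± 0.32 in CK666 (edgeR adjusted p = 2.35e-08, 6.69e-06 and 8.29e-08 in the same order). Sfrp5 had 0 counts in the 3 Ctrl libraries and 0.407 to 1.10 CPM in CytoD+CK666, 0.268 to 0.361 CPM in CytoD and 0.197 to 0.532 CPM in CK666. The adipocyte marker sums given above were highest in the same groups as Apcdd1, and their part in these changes was not tested.

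Of 7 tested R-spondins, their receptors and Frizzled-removing ligases, 2 rose and 3 fell in CytoD+CK666 against Ctrl, 2 rose and 0 fell in CytoD, and 1 rose and 3 fell in CK666. These were 71.4%, 28.6% and 57.1% of the list, against 46.0%, 37.9% and 41.1% of all genes. R-spondins keep Frizzleds and LRP6 at the cell surface. Rspo2 averaged 193 ± 14 CPM in CytoD+CK666, 595 ± 11 in CytoD, 187 ± 34 in CK666 and 545 ± 30 in Ctrl, and fell against Ctrl in CytoD+CK666 (log2 change -1.49 ± 0.11, edgeR adjusted p = 3.03e-07) and in CK666 (log2 change -1.54 ± 0.11, adjusted p = 4.88e-07). Rspo3 averaged 9.88 ± 0.40 CPM in CytoD+CK666, 10.6 ± 1.1 in CytoD, 7.04 ± 1.2 in CK666 and 4.30 ± 1.1 in Ctrl, and was called higher in each treatment (log2 change 1.20 ± 0.16, 1.30 ± 0.17 and 0.71 ± 0.17 in CytoD+CK666, CytoD and CK666; edgeR adjusted p = 5.83e-05, 6.34e-05 and 0.00424 in the same order). The R-spondin receptor Lgr5 averaged 3.66 ± 2.1 CPM in CytoD+CK666, 20.8 ± 3.9 in CytoD, 2.48 ± 1.3 in CK666 and 30.0 ± 1.9 in Ctrl.

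Of 13 tested canonical targets and feedback genes, 3 rose and 6 fell in CytoD+CK666 against Ctrl, 3 rose and 1 fell in CytoD, and 2 rose and 6 fell in CK666. These were 69.2%, 30.8% and 61.5% of the list, against 46.0%, 37.9% and 41.1% of all genes. Axin2, a feedback inhibitor commonly read as a canonical target, averaged 3.85 ± 0.55 CPM in CytoD+CK666, 3.0 ± 0.36 in CytoD, 2.43 ± 0.36 in CK666 and 0.691 ± 0.32 in Ctrl. Its rise against Ctrl was 2.49 ± 0.26, 2.13 ± 0.26 and 1.82 ± 0.26 in CytoD+CK666, CytoD and CK666 (edgeR adjusted p = 4.92e-06, 4.49e-05 and 0.000136 in the same order). Notum, a secreted enzyme that inactivates Wnts, was at 0.222 to 0.592 CPM in CytoD+CK666, 0.411 to 0.738 CPM in CytoD, 0.271 to 0.282 CPM in CK666 and 0 to 0.150 CPM in Ctrl. In contrast, Wisp1 averaged 30.9 ± 6.9 CPM in CytoD+CK666, 41.3 ± 4.3 in CytoD, 36.1 ± 6.7 in CK666 and 160 ± 9.2 in Ctrl, and its log2 change was -2.37 ± 0.16, -1.95 ± 0.16 and -2.15 ± 0.16 in CytoD+CK666, CytoD and CK666 (edgeR adjusted p = 1.38e-07, 2.21e-06 and 6.26e-07 in the same order). Nkd1, another feedback gene, averaged 4.40 ± 0.58 CPM in CytoD+CK666, 19.7 ± 2.4 in CytoD, 5.67 ± 0.58 in CK666 and 17.1 ± 0.65 in Ctrl. It was lower in CytoD+CK666 than in CytoD (log2 change -2.16 ± 0.12, edgeR adjusted p = 1.75e-07). Several genes of this list also stand in others: 6 of the 14 found.

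The remaining lists held called genes in both directions. Of 24 canonical transduction genes, 5 rose and 3 fell in CytoD+CK666 against Ctrl, 2 rose and 5 fell in CytoD, and 2 rose and 3 fell in CK666, which is 33.3%, 29.2% and 20.8% of the list, under the 46.0%, 37.9% and 41.1% of all genes. Beta-catenin itself, Ctnnb1, averaged 778 ± 69 CPM in CytoD+CK666, 733 ± 3.7 in CytoD, 954 ± 107 in CK666 and 917 ± 21 in Ctrl. It fell against Ctrl in CytoD (log2 change -0.32 ± 0.08, edgeR adjusted p = 0.00896) and in CytoD+CK666 (log2 change -0.24 ± 0.08, adjusted p = 0.0349). The CytoD+CK666 call was lost without CytoD replicate 1, CytoD+CK666 replicate 2 or 3, or Ctrl replicate 2. Of 16 planar cell polarity and other noncanonical genes, 2 rose and 5 fell in CytoD+CK666, 4 rose and 3 fell in CytoD, and 2 rose and 6 fell in CK666, which is 43.8% of the list in CytoD+CK666 and in CytoD and 8 of 16 in CK666, against 46.0%, 37.9% and 41.1% of all genes. Prickle3, a planar cell polarity protein, fell against Ctrl in CytoD+CK666 (log2 change -1.09 ± 0.14, edgeR adjusted p = 4.15e-05) and in CytoD (log2 change -0.89 ± 0.14, adjusted p = 0.000363). It averaged 9.57 ± 1.3 CPM in CytoD+CK666, 11 ± 1.4 in CytoD, 14.6 ± 2.8 in CK666 and 20.4 ± 0.73 in Ctrl. Of 12 tested genes of Wnt secretion and ligand processing, 2 rose and 3 fell in CytoD+CK666, 5 rose and 3 fell in CytoD, and 2 rose and 4 fell in CK666, which is 41.7% of the list in CytoD+CK666, 66.7% in CytoD and 6 of 12 in CK666. Sulf1, a sulfatase that trims the heparan sulfate to which Wnts bind, averaged 11.5 ± 0.69 CPM in CytoD+CK666, 21.9 ± 1.8 in CytoD, 16 ± 3.5 in CK666 and 59.8 ± 8.6 in Ctrl. It fell in CytoD+CK666, CytoD and CK666 (log2 changes -2.38 ± 0.15, -1.45 ± 0.14 and -1.9 ± 0.15; edgeR adjusted p = 6.93e-08, 9.66e-06 and 7.55e-07 in the same order).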

How the data were processed

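RNA-seq gene counts from 12 libraries (4 groups of 3) were analysed. The authors' deposited table gives a read count per gene and library and an RPKM value, per the file headers. The tools named in the submitters' processing notes are CASAVA 1.9, TopHat and HTSeq, and the build named there, hg19, is human. Symbols are mouse, and 99.4% of 20970 rows matched by name overlap that gene in GENCODE M21 (GRCm38), so coordinates are given on GRCm38. The deposited RPKM values equal the count per kilobase of the length column per 1 total for each library, and were used only for this check. Every count is even, as if both reads of a fragment had been counted, and counting error may then be larger than counts imply. Strand handling is not stated. The row Rn45s (ribosomal RNA) took 1.856% to 4.521% of counts.

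Genes were filtered with filterByExpr (minimum count 10), scaled by TMM and fitted with 1 mean per group in edgeR 4.0.16 (R 4.3.3), common biological coefficient of variation 0.115. Tests were 2-sided, with Benjamini-Hochberg adjustment over 13534 genes within each of 6 comparisons and none across them. An SE is the log2 change over the square root of F, and a 95% interval is for 1 gene. Levels carry no pseudocount. Between replicates of a group, counts differed by more than sampling noise. The alternatives were RLE scaling, DESeq2 1.42.0, no filter, the replicate number as a block, only the groups compared, each library left out, halved counts, removal of Rn45s, and removal of a length trend. The edgeR step was tested on simulated data.

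The members and lists were chosen with earlier results of these data known, and no list was tested as a set. All 34 members are named. Values in every library are given for members called with a log2 change of at least 1, the 3 highest ligands and Frizzleds per kilobase, and the LRP, ROR and RYK receptors. Of the pathway lists, genes named are among the 2 largest called changes per direction and comparison, except for level ranges. Promoter windows were searched for exact motif letters on both strands.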

Additional observations from a re-analysis of the deposited data

Results flagged for a closer look

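For 6 members the change with CytoD differed according to whether CK666 was present, by the interaction test in edgeR (adjusted p under 0.05 over 13534 genes; log2 values). Wnt5b differed by -1.57 (adjusted p = 0.00496), and its call was kept under every alternative tried. Its level was 4.49 ± 0.31 CPM in CytoD+CK666, 2.89 ± 0.12 in CytoD, 5.65 ± 1.2 in CK666 and 1.22 ± 0.41 in Ctrl (SD, n = 3 each). For the other 5, leaving out 1 library could end the call. Wnt4 differed by -1.55 (adjusted p = 0.0353), and the call ended without CytoD replicate 2 or 3, CK666 replicate 2 or 3, or any CytoD+CK666 or Ctrl library (adjusted p up to 0.0926). Wnt5a differed by -0.63 (adjusted p = 0.0429), and the call ended without any library other than CK666 replicate 3 (up to 0.101). Fzd1 differed by -0.53 (adjusted p = 0.0353; -0.525 before rounding), ending without CytoD replicate 2 or 3, CK666 replicate 1 or 2, CytoD+CK666 replicate 1 or 2, or any Ctrl library (up to 0.0954). Lrp5 differed by -0.47 (adjusted p = 0.0294), ending without CytoD replicate 2 or 3, CK666 replicate 2, CytoD+CK666 replicate 1 or 3, or any Ctrl library (up to 0.0899). Ryk differed by 0.34 (adjusted p = 0.0225), ending without CytoD replicate 2 or 3, CytoD+CK666 replicate 2 or Ctrl replicate 3 (up to 0.0729). The part of the spread of CK666 replicate 3 in these values was not tested beyond leaving it out, where 10 members were called in place of 6, Fzd4, Fzd5 and Lrp6 among them (adjusted p = 0.0172, 0.00283 and 0.0397).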

How the results depend on the processing

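Of 54 called member changes, 40 kept direction and call under every alternative and 14 lost the call under at least 1, and 0 turned round. By comparison, the calls kept were 13 of 14 (CytoD+CK666 against Ctrl), 9 of 11 (CytoD against Ctrl), 10 of 13 (CK666 against Ctrl), 6 of 8 (CytoD+CK666 against CytoD), 1 of 2 (CytoD+CK666 against CK666) and 1 of 6 (interaction). Of 66 changes that were not called, 22 changed sign under some alternative, 0 of them as a call, and 18 became calls. Among those printed, leaving out 1 library moved Wnt11 in CytoD against Ctrl between -0.30 and 0.042 and Wnt4 in CytoD+CK666 against Ctrl between -0.34 and 0.031, with the sign turned without CytoD or Ctrl replicate 3 for Wnt11 and without Ctrl replicate 2 or 3 for Wnt4. For CytoD+CK666 against CK666, 2 members and 1570 genes were called; a fit of only those 2 groups gave 1 and 459, which has fewer samples, DESeq2 gave 4 members, and leaving out 1 library gave 2 to 4 members and 745 to 2563 genes. For the interaction, 6 members and 1935 genes were called, and leaving out 1 library gave 1 to 10 members and 1094 to 3396 genes. For the other comparisons, leaving out 1 library gave 13 to 14 members (CytoD+CK666 against Ctrl), 9 to 12 (CytoD against Ctrl), 10 to 14 (CK666 against Ctrl) and 6 to 12 (CytoD+CK666 against CytoD). The all-gene counts of these 4 ranged over 5117 to 7735, 3862 to 6924, 4358 to 5816 and 2890 to 5788. Of 99 changes of pathway genes that the naming rule allows (alternatives added after seeing the data), 69 kept the call under every alternative and 0 turned round. Whether same-numbered libraries share a source is not stated, so they were not taken as pairs in the main fit. They deviated together with r from -0.0789 to 0.256 (median 0.0704, over 0.1 in 4 of 18 pairs), against a median of -0.0342 for different numbers. A library correlated best with its own number in 19 of 36 cases, each a choice among 3 libraries. These values lean weakly towards same numbers, and a shared source was not tested. The fit with the replicate block called 14, 11, 14, 10, 2 and 6 members (CytoD+CK666, CytoD and CK666 against Ctrl, CytoD+CK666 against CytoD and against CK666, and the interaction). Another scaling moved the median of all genes by 0.0354 at most, which was enough to turn their balance of calls. In CK666 against Ctrl, 3040 were higher and 2525 lower, but 2658 and 2878 with RLE, 2667 and 2850 without Rn45s, 2842 and 3081 by DESeq2, and 2905 and 3145 with the length trend removed. CytoD+CK666 against Ctrl, CytoD against Ctrl and CytoD+CK666 against CytoD turned in the same way. Depth limits Wnt10b, Wnt2b and Wnt6, whose log2 changes between groups had SEs of 0.41 to 0.83.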
